A study of Mus musculus with 8 samples.

Results

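The genes described here are 10 components of the Notch pathway: the receptors Notch1, Notch2, Notch3 and Notch4, the ligands Jag1, Jag2 and Dll1, and the target genes Hes1, Hey1 and Heyl. They were taken by gene name from a table of 49671 genes, and all 10 were found. The table holds 8 libraries of RNA from sorted mouse mammary gland cells, 2 in each of 4 groups. The mice were females, described in the labels as of mixed background, and no age at collection is given in the sources used here. Cells carrying CD45, CD31 or CD140a, surface proteins of blood cells, endothelium and fibroblasts, were gated out in every group.

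The CD1 luminal and CD1 basal groups came from mice labelled CD1, with no transgene named, and were gated as CD24+ CD29low and CD24+ CD29high cells. The DNp63 luminal and DNp63 basal groups came from K8rtTA/TetOCre/Rosa26-DNp63-IRES-GFP mice and went through the same gates with GFP+ added. In such mice doxycycline lets K8rtTA, made in cells that use the keratin 8 promoter, switch on TetOCre. Cre then opens a Rosa26 cassette that encodes ΔNp63, the p63 form of basal epithelium, together with GFP. For these mice no doxycycline schedule is given in the sources used here. Strain, doxycycline and GFP sorting all accompany the transgene, so they cannot be told apart from it in a comparison of DNp63 with CD1 cells. A luminal sample was 40000 cells and a basal sample 5000 cells, so gate and cell number cannot be told apart either. Nothing in the labels ties a library to an animal, so p-values measure only the spread between these libraries, which may be technical.

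Notch signalling passes between neighbouring cells. A ligand of the Jagged or Delta-like family on a cell binds a Notch receptor on its neighbour, proteases of the ADAM family and the gamma-secretase complex cut the receptor, and its intracellular part enters the nucleus. There it joins the DNA-binding protein RBPJ and a Mastermind co-activator and switches on genes of the HES and HEY repressor families. In the mammary gland the pathway is known for its part in luminal fate, and p63 for its part in basal fate. Outside the epithelium, Notch4 and Dll4 are known from endothelium, and Notch3 and Heyl from the mural cells of vessels.

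Values are reads per 20000000 reads of a library. Reads recovered from them numbered 4136986 to 7206703 per library, so 1 read was worth 2.78 to 4.83 units. Differences are log2 differences of scaled values with 8 added, which understates changes of low genes. An adjusted p is that of limma's moderated test over all 16900 genes tested, and genes under 0.05 are called. Marker lists followed the gates. The summed values of 10 luminal markers were 214709 to 251105 in the 4 luminal libraries and 14786 to 37471 in the 4 basal ones, and those of 8 basal markers 1774 to 3917 and 188657 to 213927. Markers of vessels and fat were also higher in the basal gate. The sum over 16 endothelial genes was 3955 to 5280 in luminal and 52331 to 76313 in basal libraries, over 11 pericyte and vascular muscle genes 743 to 1087 and 16502 to 22331, and over 6 adipocyte genes 396 to 646 and 14723 to 25679. Of these 33 genes, the fat hormone gene Lep alone was at 0 in both libraries of a group, in the 2 luminal groups. For 8 fibroblast genes the CD1 luminal libraries summed to 8184 and 31390, the DNp63 luminal libraries to 11067 and 6674, the CD1 basal libraries to 11989 and 31976, and the DNp63 basal libraries to 47241 and 63784.

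Of the ligands, Jag2 and Dll1 marked the basal gate, while Jag1 was abundant in both gates. Jag1, Jag2 and Dll1 were each higher in basal than in luminal cells of both mice, by about 2-fold for Jag1 and far more for Jag2 and Dll1. In bulk samples such as these, fewer cells of a type and less RNA per cell cannot be told apart.

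**Figure D1:**
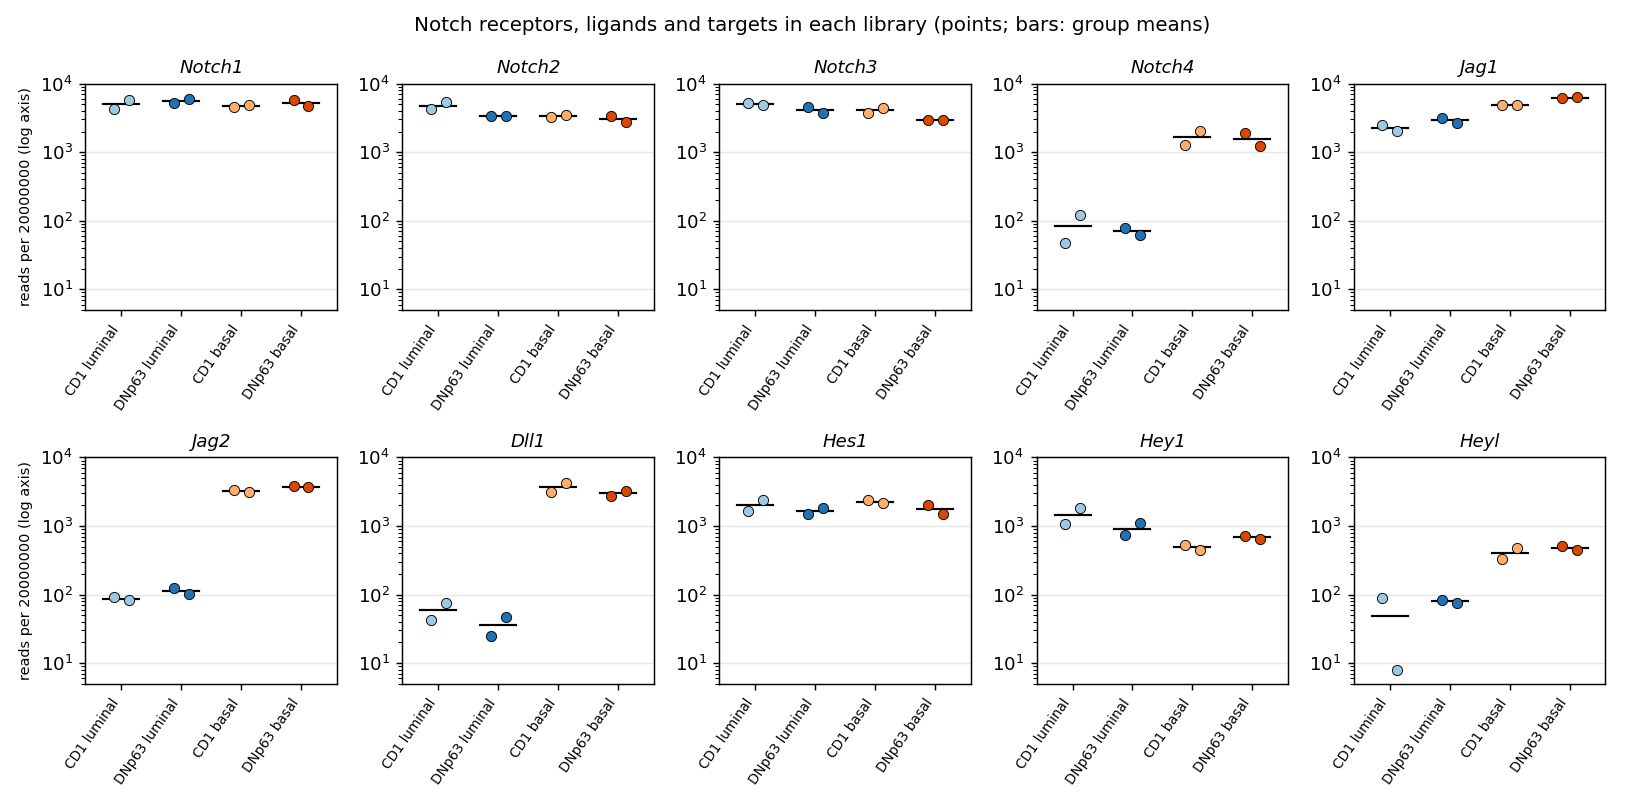
Values of the 10 genes in each library (vertical log axis, reads per 20000000; points are libraries, bars are group means, and the 4 groups stand side by side). Jag2, Dll1 and Notch4 lay between 25 and 125 in the luminal libraries and between 1238 and 4260 in the basal ones, while Notch1 and Hes1 overlapped between the gates of each mouse.

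The stretches before the starts of the genes that rose together in basal cells are shown to let their letters be compared, with Notch2, which did not rise, for contrast. RefSeq windows on GRCm38.p6 matched 7 of the 10 genes, the 4 receptors and the 3 ligands. Hes1, Hey1 and Heyl had no entry. The 250 bases before each of the 8 starts (Dll1 has 2) were searched on both strands for TGGGAA, the core of the RBPJ site, and for the E-boxes CAGGTG, read by repressors of the Snail family, and CACGTG. None of these motifs contains another. TGGGAA was in 0 of 8 windows, against 21.6% of all 32851 windows of that length. CACGTG was in 0 of 8, against 6.02%. CAGGTG was in 1 of 8, a window of Dll1, against 17.2%. Only bases that precede both the RefSeq start and the GENCODE start of a gene are printed. This leaves none for Notch1, Jag2 and the Dll1 start at 15375823, whose windows lie inside the genes as annotated by GENCODE. The stretches lie at chr17:15376933-15377182 (minus strand) for Dll1, chr17:34564045-34564267 (plus strand) for Notch4, chr2:137116645-137116770 (minus strand) for Jag1 and chr3:98013288-98013526 (plus strand) for Notch2. The motif match is in capitals.
Dll1: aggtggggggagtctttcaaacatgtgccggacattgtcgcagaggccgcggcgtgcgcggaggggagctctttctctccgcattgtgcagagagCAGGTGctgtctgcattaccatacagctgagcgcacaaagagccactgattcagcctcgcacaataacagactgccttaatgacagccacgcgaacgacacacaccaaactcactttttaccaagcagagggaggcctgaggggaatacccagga
Notch4: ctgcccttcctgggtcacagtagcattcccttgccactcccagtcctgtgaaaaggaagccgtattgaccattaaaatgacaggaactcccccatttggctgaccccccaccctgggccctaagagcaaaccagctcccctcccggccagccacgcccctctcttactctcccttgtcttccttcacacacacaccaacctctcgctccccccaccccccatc
Jag1: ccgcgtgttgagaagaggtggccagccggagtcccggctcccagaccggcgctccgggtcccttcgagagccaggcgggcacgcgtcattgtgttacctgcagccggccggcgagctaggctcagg
Notch2: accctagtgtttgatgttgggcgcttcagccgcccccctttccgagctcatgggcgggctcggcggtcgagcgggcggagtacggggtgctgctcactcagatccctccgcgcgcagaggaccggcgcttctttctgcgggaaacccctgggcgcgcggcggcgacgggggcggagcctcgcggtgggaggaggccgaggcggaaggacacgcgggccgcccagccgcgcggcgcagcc

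The Notch2 and Jag1 stretches were richer in G and C (74.1% and 70.6%) than those of Notch4 (59.2%) and Dll1 (56.0%), where the median of all windows was 52.4%. The absence of a match says only that these letters are not in these windows.

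Dll1 (ENSMUSG00000014773, chromosome 17, 15367354 to 15376872, minus strand of GRCm38), a Delta-like ligand, stood at 43 and 75 in CD1 luminal libraries and at 25 and 47 in those of DNp63 luminal cells. CD1 basal libraries had 3114 and 4260, and DNp63 basal libraries 2778 and 3201. Every basal library was above every luminal one. The log2 difference of basal minus luminal was 5.81 in CD1 (SE 0.32, limma adjusted p = 4.34e-06) and 6.21 in DNp63 (SE 0.32, limma adjusted p = 2.37e-06).

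Jag2 (ENSMUSG00000002799, chromosome 12, 112907819 to 112929776, minus strand), a Jagged ligand, varied little within groups. CD1 luminal libraries had 93 and 82, DNp63 luminal libraries 125 and 102, CD1 basal libraries 3393 and 3102, and DNp63 basal libraries 3823 and 3646. The gates did not overlap. The differences were 5.09 (SE 0.16, limma adjusted p = 4.31e-07) in CD1 and 5.03 (SE 0.16, limma adjusted p = 3.34e-07) in DNp63.

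Jag1 (ENSMUSG00000027276, chromosome 2, 137081456 to 137116644, minus strand), the other Jagged ligand, was also abundant in luminal cells. It stood at 2522 and 2056 in CD1 luminal and at 3184 and 2634 in DNp63 luminal libraries, while CD1 basal libraries had 4908 and 4895 and DNp63 basal libraries 6209 and 6280. The 4 groups lay in that order without overlap between neighbours. Basal minus luminal was 1.1 (SE 0.14, limma adjusted p = 0.000359) in CD1 and 1.19 (SE 0.14, limma adjusted p = 0.000199) in DNp63.

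Levels per kilobase of exon (all annotated exons of a gene merged) let genes be compared, but depend on the merged length used. By this measure Jag1 made up most of the ligand reads in luminal cells and shared them in basal cells. Of the summed level of the 3 ligands, Jag1 held 92.3% to 95.8% in the 4 luminal libraries and 36.6% to 46.9% in the 4 basal ones. Dll1 held 1.04% to 4.65% and 29.0% to 44.0%, and Jag2 2.93% to 3.15% and 19.4% to 24.1%. The sum itself was 382.4 to 570.3 per kilobase in luminal and 2068 to 2360 in basal libraries. In the CD1 basal group Dll1 and Jag1 had levels of 873.9 ± 192 and 841.2 ± 1.58 per kilobase (SD, n = 2), which did not differ beyond their spread.

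**Figure D2:**
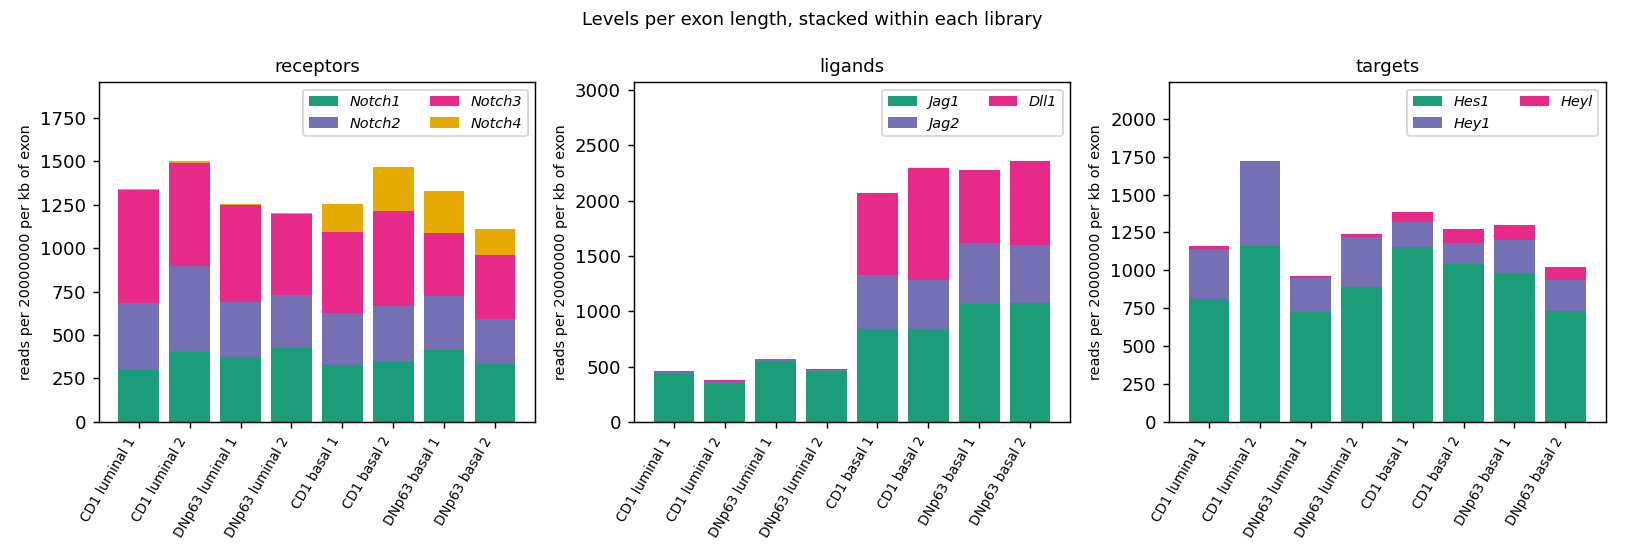
Levels per kilobase of exon (vertical axis, reads per 20000000 per kilobase), stacked by gene in each of the 8 libraries, for receptors, ligands and targets. The ligand stacks reach 382.4 to 570.3 in luminal and 2068 to 2360 in basal libraries, whereas the receptor stacks range from 1112 to 1504 over both gates.

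The receptors did not share a direction. Notch4 rose in the basal gate of both mice, while Notch1, Notch2 and Notch3 were abundant in all 8 libraries and differed little between the gates.

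Notch1 (ENSMUSG00000026923, chromosome 2, 26457903 to 26516663, minus strand) is the founding receptor of the family in mammals. CD1 luminal libraries had 4216 and 5720, DNp63 luminal libraries 5301 and 6018, CD1 basal libraries 4624 and 4943, and DNp63 basal libraries 5863 and 4733. The gates overlapped in both mice. Basal minus luminal was -0.04 (SE 0.17, 95% interval -0.42 to 0.34, limma adjusted p = 0.857) in CD1 and -0.02 (SE 0.17, 95% interval -0.40 to 0.36, limma adjusted p = 0.937) in DNp63.

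Notch2 (ENSMUSG00000027878, chromosome 3, 98013527 to 98150361, plus strand), a receptor, was highest in CD1 luminal cells, at 4213 and 5316. The other groups lay close together, with 3417 and 3326 for DNp63 luminal, 3274 and 3478 for CD1 basal, and 3368 and 2785 for DNp63 basal cells. In CD1 it was lower in basal cells by a log2 difference of -0.49 (SE 0.14, limma adjusted p = 0.0227). That call was lost when the second CD1 luminal library (limma adjusted p = 0.105), the first CD1 basal library (0.111) or the second (0.0597) was left out. In DNp63 the gate difference was -0.06 (limma adjusted p = 0.774).

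Notch3 (ENSMUSG00000038146, chromosome 17, 32120820 to 32166852, minus strand) is a receptor known, among other places, from vascular smooth muscle. It had 5255 and 4805 for CD1 luminal, 4516 and 3757 for DNp63 luminal, 3773 and 4416 for CD1 basal, and 2959 and 2974 for DNp63 basal cells. The DNp63 basal libraries were the lowest, and the 2 groups in the middle overlapped. In DNp63 it was lower in basal cells by -0.39 (SE 0.14, limma adjusted p = 0.0439). That call was lost when the first DNp63 luminal library (-0.25, limma adjusted p = 0.27) or either DNp63 basal library (0.156 and 0.1185) was left out. Without the second DNp63 luminal library the difference was -0.59. In CD1 the difference was -0.30 (limma adjusted p = 0.106).

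Notch4 (ENSMUSG00000015468, chromosome 17, 34564268 to 34588503, plus strand), the receptor best known from endothelium, had 47 and 123 for CD1 luminal, 78 and 63 for DNp63 luminal, 1273 and 2017 for CD1 basal, and 1910 and 1238 for DNp63 basal cells. The gates did not overlap, and CD1 and DNp63 libraries of a gate did. Basal minus luminal was 4.24 (SE 0.41, limma adjusted p = 8.21e-05) in CD1 and 4.38 (SE 0.41, limma adjusted p = 5.83e-05) in DNp63.

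Per kilobase the receptors ran Notch3, Notch2, Notch1 and Notch4 from high to low in CD1 luminal cells, at 621.8 ± 39.3, 441.9 ± 72.3, 349.1 ± 74.7 and 10.54 ± 6.67 (SD, n = 2). Notch2 was above Notch1 in both CD1 luminal libraries, at 390.7 against 296.2 and 493.0 against 401.9. Before division by length Notch2 was below Notch1, at 4213 against 4216 and 5316 against 5720. The merged exons span 14232 bases for Notch1 and 10782 for Notch2, so the place of Notch1 in these orders depends on the length used. In DNp63 luminal cells the same genes had levels of 511.4 ± 66.3, 312.7 ± 5.97, 397.7 ± 35.6 and 8.75 ± 1.32 (SD, n = 2), with Notch1 above Notch2. In CD1 basal cells the levels were 506.2 ± 56.2, 313.1 ± 13.4, 336.1 ± 15.8 and 204.1 ± 65.3 (SD, n = 2). In DNp63 basal cells Notch1 and Notch3 had levels of 372.3 ± 56.1 and 366.7 ± 1.31 (SD, n = 2), not separable by their spread. Notch4 held 0.434% to 1.01% of the receptor sum in luminal and 12.6% to 17.9% in basal libraries.

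The vessel markers moved with Notch4. Of 16 endothelial markers 15 were called higher in the basal gate of CD1 mice, all but Vwf, with a median difference of 5.08 over the 16. Cdh5, the endothelial cadherin, stood at 348 and 323 in CD1 luminal and at 15016 and 14684 in CD1 basal libraries, and Pecam1, which encodes the CD31 protein that was gated out, at 419 and 571 against 8163 and 7669. All 11 pericyte and vascular muscle markers were called higher, with a median of 3.75, and so were the 8 basal markers, with a median of 6.68. Notch4 (4.24) lay within the range of the endothelial and pericyte lists. What part vessel cells have in the values of Notch4, Jag2, Dll1, Heyl and Dll4 was not tested.

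**Figure D3:**
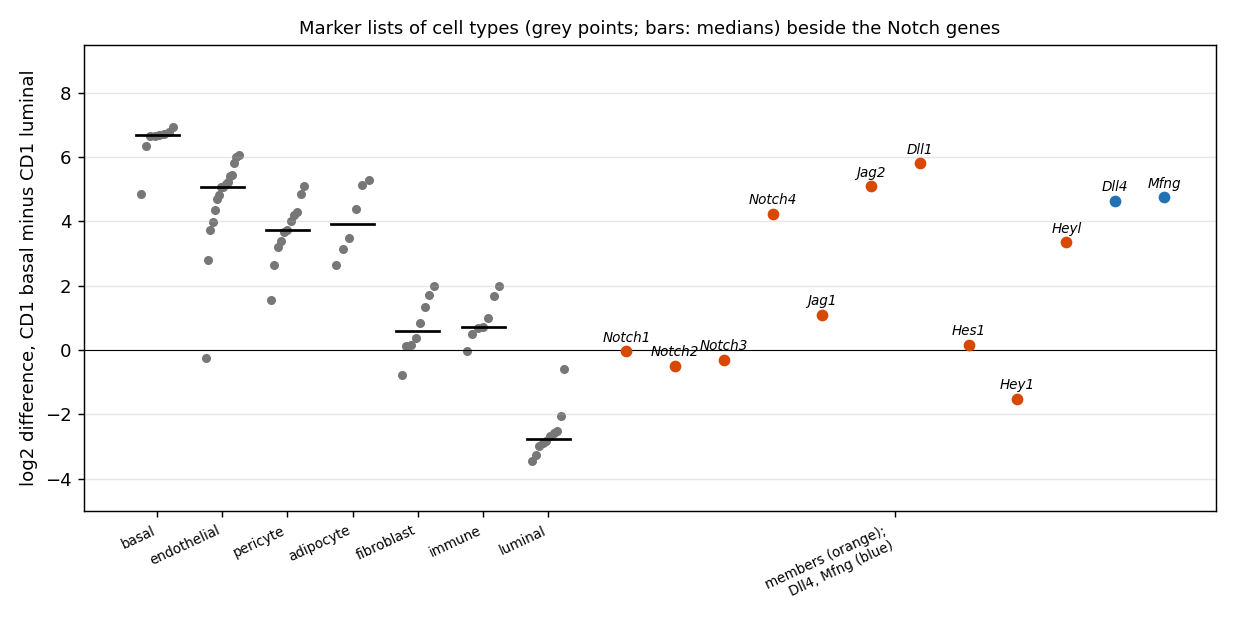
Log2 differences of CD1 basal minus CD1 luminal (vertical axis) for the genes of 7 cell type marker lists (grey points, bars at the list medians), the 10 Notch genes (orange) and Dll4 and Mfng (blue). Dll1 (5.81), Jag2 (5.09) and Notch4 (4.24) lie within the range of the endothelial list and, but for Dll1, of the pericyte list. The endothelial range is wide (-0.24 for Vwf to 6.07 for Robo4) and also holds Heyl, Jag1, Hes1 and Notch1. Dll1 and Jag2 also lie within the range of the basal list (4.84 for Oxtr to 6.94 for Myh11), below its median (6.68). Notch4 lies below that range.

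The targets differed in direction between the gates: Heyl was higher in basal cells, Hey1 was higher in luminal cells of CD1 mice, and Hes1 was not called. Hes1 (ENSMUSG00000022528, chromosome 16, 30064384 to 30067796, plus strand), a repressor and classical Notch target, had 1653 and 2371 for CD1 luminal, 1471 and 1812 for DNp63 luminal, 2354 and 2128 for CD1 basal, and 2002 and 1494 for DNp63 basal cells. The gates overlapped in both mice. Basal minus luminal was 0.17 (SE 0.20, limma adjusted p = 0.524) in CD1 and 0.16 (SE 0.20, limma adjusted p = 0.534) in DNp63.

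Hey1 (ENSMUSG00000040289, chromosome 3, 8663359 to 8667256, minus strand), a repressor of the HEY family, stood at 1075 and 1823 in CD1 luminal and at 532 and 448 in CD1 basal libraries. The gates did not overlap, and the difference was -1.51 (SE 0.26, limma adjusted p = 0.00195). DNp63 luminal libraries had 741 and 1088 and DNp63 basal libraries 709 and 653, close together but without overlap. That difference was -0.31 (SE 0.26, 95% interval -0.92 to 0.29, limma adjusted p = 0.355). The change of the gate difference between the mice was 1.19 (SE 0.37, limma adjusted p = 0.255), so the mice were not shown to differ in it.

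Heyl (ENSMUSG00000032744, chromosome 4, 123233556 to 123249875, plus strand), also of the HEY family, had 89 and 8 for CD1 luminal, 84 and 75 for DNp63 luminal, 326 and 476 for CD1 basal, and 510 and 445 for DNp63 basal cells. The value of 8 rests on 2 reads and the 89 beside it on 25. Even so, every basal library was above every luminal one. Basal minus luminal was 3.35 (SE 0.68, limma adjusted p = 0.00424) in CD1 and 2.55 (SE 0.68, limma adjusted p = 0.0142) in DNp63. Leaving out the second CD1 luminal library, the one of its group with the higher fibroblast sum, gave 2.03 in CD1 (limma adjusted p = 0.00129); the part of fibroblast RNA in the result was not tested. The DNp63 call was lost without any 1 of its 4 libraries (limma adjusted p = 0.0525 to 0.0748).

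Per kilobase Hes1 was the highest of the 3 targets in each library, with 67.5% to 83.6% of their sum. Hey1 held 23.5% to 32.4% in luminal and 10.8% to 19.6% in basal libraries, and Heyl 0.0908% to 1.70% and 4.61% to 8.53%.

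Over the 10 genes, 7 were called between the CD1 gates, where 44.3% of all genes tested were called. Of these 5 were higher in basal cells, against 24.5% of all genes, and 2 lower, against 19.8%. The median difference was 0.64, against -0.0032 over all genes tested. Between the DNp63 gates 6 were called, where 48.3% of all genes were: 5 higher, against 26% of all genes, and 1 lower, against 22.2%. The median there was 0.68, against -0.03. All 10 passed the filter on low values in each gate taken alone.

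DNp63 basal cells set against CD1 luminal cells, a comparison that shares its libraries with those above, gave 8 calls, where 46.8% of all genes were called. There were 5 higher, against 26.5% of all genes, and 3 lower, against 20.3%. The lower ones were Notch2 (-0.60, limma adjusted p = 0.00873), Notch3 (-0.73, limma adjusted p = 0.00259) and Hey1 (-1.01, limma adjusted p = 0.0132). The Notch2 and Hey1 calls were lost when the second DNp63 basal library was left out (limma adjusted p = 0.0693 for both), and that of Hey1 also without the first (0.0545). Without the second CD1 luminal library Hey1 was at -0.67, and Heyl moved from 3.65 to 2.31, both still called.

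**Figure D4:**
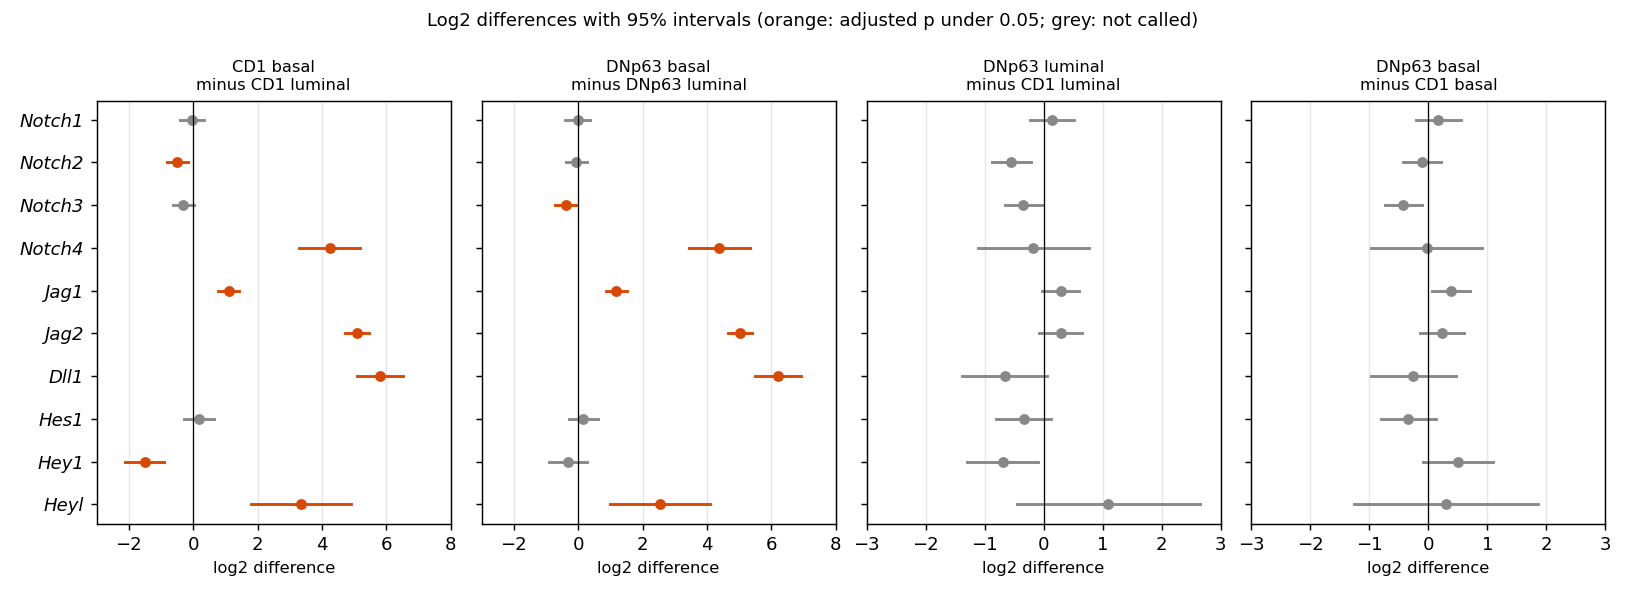
Log2 differences (horizontal axis) of the 10 genes in 4 comparisons, with points for the estimates, lines for 95% intervals without adjustment, orange for adjusted p under 0.05 and grey for the rest. Between gates Dll1 lies furthest to the right (5.81 in CD1, 6.21 in DNp63), and in the panels that compare mice no gene is orange.

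DNp63 cells were then compared with CD1 cells of the same gate. With limma, 0 of the 10 genes were called in the luminal gate, where 4.37% of all genes were, and 0 in the basal gate, where 0.639% were. limma voom on recovered reads also called 0 in both gates. Unadjusted, 3 of 10 had a p under 0.05 in the luminal gate (Notch2, Notch3 and Hey1), against 17.2% of all genes, and 2 in the basal gate (Notch3 and Jag1), against 11.3%. The median differences were -0.25 and 0.07, against 0.01 over all genes tested in both.

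The intervals show the sizes of change these libraries allow. For Notch2 the difference of DNp63 luminal minus CD1 luminal was -0.55 (95% interval -0.87 to -0.22, limma adjusted p = 0.078). For Hey1 it was -0.69 (-1.30 to -0.09, limma adjusted p = 0.218), and for Notch1 0.14 (-0.24 to 0.52, limma adjusted p = 0.745). The widest interval was that of Heyl, 1.1 (-0.46 to 2.65, limma adjusted p = 0.477). Without the first CD1 luminal library the differences were -0.76 in Notch2, -1.12 in Hey1 and 2.38 in Heyl. The CD1 luminal library left in that fit had 2 reads of Heyl. Without the second CD1 luminal library Heyl was at -0.21. Over all alternatives given at the end, Notch2 ran from -0.76 to -0.39 and Hey1 from -1.12 to -0.32. Among the ligands, luminal DNp63 cells differed from CD1 by 0.29 in Jag1 (-0.03 to 0.61), 0.29 in Jag2 (-0.08 to 0.66) and -0.66 in Dll1 (-1.38 to 0.06), and none of these was called.

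In the basal gate Notch3 differed by -0.43 (95% interval -0.75 to -0.12, limma adjusted p = 0.272) and Jag1 by 0.38 (0.06 to 0.70, limma adjusted p = 0.35). The other 8 lay between -0.34 (Hes1) and 0.50 (Hey1). The DNp63 and CD1 libraries did not overlap in Notch3 and Jag1, nor in Jag2, Hes1 and Hey1. How often this held over all genes was not counted, and none of these genes was called, so no difference is drawn from it. The change of the DNp63 effect between gates was called for 0 of 10 genes by limma and by voom, where 0.308% of all genes were called by limma. At an unadjusted p under 0.05 stood 1 of 10 (Hey1), against 10.5% of all genes. It ran from -0.80 (Heyl) to 1.19 (Hey1), with Notch2 at 0.44.

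Of the wider pathway, a list of 46 other genes, 41 were tested. Those left out were Dner, Hes2, Hes5, Hes7 and Nrarp, whose values were at most 28. Another 5 genes, the ligands Dll3, Dlk1 and Dlk2, the fringe enzyme gene Mfng and Dtx1, passed the filter through the basal libraries alone. Of the remaining 36, 10 were called higher and 10 lower between the CD1 gates (median -0.17), where 24.5% of all genes were higher and 19.8% lower. Between the DNp63 gates 11 were higher and 9 lower (median 0.11), where 26% and 22.2% of all genes were. The shares over all genes include genes that passed the filter through 1 gate alone, so they are not of a like set. Against CD1 cells of the same gate, 0 of the 41 were called by limma in DNp63 luminal or DNp63 basal cells, with 8 and 3 at an unadjusted p under 0.05, or 19.5% and 7.32%, against 17.2% and 11.3% of all genes. With voom 1 gene of the list was called in the luminal gate and 0 in the basal gate.

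The ligand Dll4, known from sprouting endothelium, moved like Dll1 and Jag2. CD1 luminal libraries had 40 and 75, DNp63 luminal libraries 78 and 75, CD1 basal libraries 1694 and 1450, and DNp63 basal libraries 1682 and 919. It rose by 4.64 in CD1 (limma adjusted p = 1.68e-05) and 3.97 in DNp63 (limma adjusted p = 2.93e-05). Dll3 was at 4 to 12 in luminal and at 39 to 76 in basal libraries, and the membrane proteins Dlk1 and Dlk2 at 0 to 8 and 55 to 160. Mfng, which encodes a fringe enzyme that adds sugar to Notch receptors, was at 0 to 24 in luminal and at 179 to 316 in basal libraries. For Dll3, Dlk1, Dlk2 and Mfng the luminal values are a few reads, and fitted differences depend on the amount added before the logarithm.

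Of 4 ubiquitin ligases that act on ligands, 3 rose in CD1 basal cells, where 24.5% of all genes did: Mib1 (0.45), Neurl1a (1.05) and Neurl1b (2.12). These also rose in DNp63 basal cells (0.39, 1.94 and 2.42), where 26% of all genes did. The other ligase gene, Mib2, was called in neither mouse (0.33 and 0.30, limma adjusted p = 0.313 and 0.334). Of the receptor cleavage genes, those that fell in CD1 basal cells included Adam10, which makes the outer cut (-1.41, limma adjusted p = 0.000385), and the gamma-secretase genes Ncstn (-0.54), Aph1a (-0.80) and Psenen (-0.76). In DNp63 basal against luminal cells those that fell included Adam10 (-1.97), Ncstn (-0.41), Aph1a (-0.84), Psenen (-0.50) and Aph1c (-1.70). The cleavage genes Adam17 (0.27 and 0.12) and Aph1b (-0.15 and -0.23) were called in neither mouse. Adam10 had 12559 and 12055 for CD1 luminal, 22027 and 14328 for DNp63 luminal, 4748 and 4548 for CD1 basal, and 4304 and 4250 for DNp63 basal cells.

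In the nuclear complex Rbpj was slightly higher in basal cells, at 1188 and 1130 in CD1 luminal against 1777 and 1553 in CD1 basal libraries (0.51, limma adjusted p = 0.00899), and by 0.43 in DNp63 (limma adjusted p = 0.0183). The Mastermind co-activators divided. Maml2 rose by 1.24 in CD1 (limma adjusted p = 9.39e-05) and 1.72 in DNp63 (limma adjusted p = 1.28e-05), Maml3 was lower, at -0.82 (limma adjusted p = 0.000872) and -0.73 (limma adjusted p = 0.0014), and Maml1 was not called (0.17 and 0.23). Hes6, which encodes an antagonist of HES1, was at 141 to 286 in luminal and 34 to 74 in basal libraries, a difference of -1.63 (limma adjusted p = 0.0119) in CD1 and -2.24 (limma adjusted p = 0.00232) in DNp63. The CD1 call of Hes6 was lost without the first CD1 luminal (limma adjusted p = 0.0583) or the second CD1 basal library (0.0832).

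Cntn1, a cell adhesion protein that can bind Notch, was called lower in basal cells of CD1 mice and higher in basal cells of DNp63 mice. CD1 luminal libraries had 142 and 101, DNp63 luminal libraries 48 and 20, CD1 basal libraries 5 and 36, and DNp63 basal libraries 131 and 112. The CD1 basal values rest on 1 and 9 reads and the DNp63 luminal values on 17 and 5. Basal minus luminal was -2.42 in CD1 (limma adjusted p = 0.00985) and 1.77 in DNp63 (limma adjusted p = 0.0341), and the CD1 call was lost without the first CD1 basal library (-1.53, limma adjusted p = 0.0535). Whether the DNp63 call of Cntn1 held under the alternatives given at the end was not examined. The change between the mice, 4.20, was not called (limma adjusted p = 0.0872).

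Genes of most similar pattern were sought by Pearson's r over the 8 libraries, among 12346 genes with a mean value of at least 100. The libraries fall into a luminal and a basal set, so r is given as a description. At r of 0.95 or more there were 1286 genes for Notch4, 1340 for Jag2 and 1320 for Dll1, and 1 each for Notch1 and Hes1. The nearest to Notch4 were Pear1 (r = 0.998), Nrp1 (0.998) and Sh2b3 (0.997). The nearest to Jag2 were Tpm2, Gprin3 and Sncaip (0.999 each), and to Dll1 Sh3bp5, Egr2 and Kcnj8 (0.999 each), the last on the pericyte list. The nearest to Jag1 were Ttyh2, B3glct and Elovl4 (0.994 to 0.996), and to Heyl BC030336, Pold2 and Rusc1 (0.989 to 0.994). For the other genes the nearest was Tpra1 to Notch2 (0.992), Gm43421 to Notch3 (0.983), Trp53bp2 to Hey1 (0.972), Ice2 to Notch1 (0.965) and Cpeb3 to Hes1 (0.955).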

How the data were processed

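The deposited table holds score values. Per the labels and the values, the authors scaled read counts to 20000000 per library and rounded them to whole numbers. Per the submitters' processing notes, STAR and HTSeq were used on GRCm38 (mm10). No version, annotation release or strand setting is given in the sources used here. The smallest values give the worth of 1 read, and 99.8% to 99.9% of values above 0 fell on whole reads rounded up to the next whole number.

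From these values, TMM scaling, the addition of 8 and log2 gave the input of limma 3.58.1 (R 4.3.3), with 4 group means and an intensity trend. Residual degrees of freedom were 4 and prior ones 4.62. Genes at 40 or more in at least 2 libraries, 16900 in all, were tested in 5 comparisons and 1 interaction, two-sided, with Benjamini-Hochberg adjustment. The fit was tested on simulated data.

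Members and lists were chosen with earlier results of these data known. Besides the members, the text names by rule up to 5 called pathway genes with the highest and 5 with the lowest difference per comparison, Rbpj, the 3 genes of most similar pattern to each member, and pathway genes whose role the text introduces. Coordinates and exon lengths are from GENCODE M21. The values of 1 pathway gene are not reported here.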

Additional observations from a re-analysis of the deposited data

How the results depend on the processing

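Alternatives were other scaling (no TMM factors, median-of-ratios), 4 or 20 added in place of 8, no filter or one at 100, voom on recovered reads, no intensity trend, 2-group fits, a replicate block and leaving out each library. A lone library was then assumed to vary like the others. Jag1, Jag2, Dll1 and Notch4 stayed called in the same direction in both gate comparisons under all of these. The number of Notch genes called was 6 to 7 in CD1 and 4 to 6 in DNp63. Without the intensity trend the CD1 call of Notch2 and the DNp63 call of Notch3 were lost (limma adjusted p = 0.0727 and 0.117), and that of Notch3 also with no filter (0.0694). The cause was not tested. In DNp63 luminal minus CD1 luminal, leaving out 1 library gave 0 to 3 Notch genes and 0 to 4 of the whole pathway list. That list gave 1 with no TMM factors, with 20 added, with voom and with the replicate block. The counts over all genes moved. DNp63 luminal minus CD1 luminal (739) gave 448 with no filter, 414 without the trend, 314 in the 2-group fit and 141 to 972 without 1 library. DNp63 basal minus CD1 basal (108) gave 41, 31, 55 with voom, 185 with the replicate block and 3 to 186. The interaction (52) gave 5, 12, 16, 118, 85 with 20 added and 4 to 133. The titles number the libraries 1 and 2 in each group without saying that a number marks an animal. Deviations of same-numbered libraries correlated at 0.341 between the CD1 gates, 0.266 between the DNp63 gates and -0.0144 to 0.0411 otherwise. The block moved no other count of calls by over 1.5 times. Signs turned only in differences that were not called. Leaving out 1 library, Notch1 ran from -0.32 to 0.15 (CD1 gates), -0.16 to 0.12 (DNp63 gates; 0.0074 with voom), -0.17 to 0.31 (DNp63 basal minus CD1 luminal) and -0.12 to 0.35 (luminal gate). Hes1 ran from -0.15 to 0.41, -0.0284 to 0.36 and -0.50 to 0.0531 in the first 3 of these. Notch2 ran from -0.23 to 0.0083 (basal gate) and -0.18 to 0.0637 (DNp63 gates), Notch4 from -0.37 to 0.31 (basal gate) and -0.84 to 0.45 (luminal gate), and Heyl from -0.21 to 2.38 (luminal gate) and -2.10 to 0.50 (interaction). Depth limits Heyl and Dll1 in luminal cells, with 2 to 30 and 9 to 20 reads per library. The same holds for Notch4 and Jag2, with 13 to 33 and 22 to 45 reads.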
